A study of Mus musculus with 12 samples.

Results

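Spinal cord microglia of mice labelled as a Kdm6a conditional knockout (cKO) were read in 6 RNA-seq libraries, and the genes that differed most and least between those 6 libraries are described. The 6 libraries, cKO 1 to cKO 6, are every library labelled Kdm6a cKO among the 12 of the study, and no value of the other genotype was used. All 6 came from C57BL/6 females with EAE (experimental autoimmune encephalomyelitis), in which T cells against myelin cause lesions like those of multiple sclerosis. The mice carried Tmem119-Cre and RiboTag, so that Cre made under a microglial gene's promoter deletes Kdm6a and also switches on a tagged ribosomal protein with which RNA can be pulled out of the tissue. Kdm6a is X-linked and encodes a demethylase that removes a repressive methyl mark from histone H3. The labels give no age, day of disease, clinical score or pooling of animals, so sources of the spread between libraries cannot be told apart here.

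Microglia are the resident macrophages of the brain and spinal cord. In healthy tissue they hold a homeostatic programme (P2ry12, Tmem119, Cx3cr1) that depends on TGF-beta, and in damaged tissue they lower it and turn on a disease-associated programme of lipid and lysosomal genes (Apoe, Gpnmb, Spp1). Activated microglia also secrete cytokines and chemokines and can re-enter the cell cycle. RNA pulled down with tagged ribosomes also carries some RNA of other cells, and the spinal cord lies beside nerve roots whose Schwann cells make peripheral myelin (Prx).

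The homeostatic genes were well read in all 6 libraries, with a sum of 29497 to 66758 CPM (read counts scaled to a common library size) over the 35 list members found in the table. Totals were 22048462 ± 2053021 counts per library (SD, n = 6), from 19040115 to 25009657, and 3 counts were worth 0.120 to 0.158 CPM. Kdm6a itself (X chromosome, chrX:18162575-18279936, mm10) had 69, 124, 55, 80, 40 and 36 counts in cKO 1 to 6, or 3.45, 4.89, 2.75, 3.25, 1.69 and 1.89 CPM. Counts cover the whole gene, so they do not show how much of the deleted stretch was left. Neurons, astrocytes and oligodendrocytes left a signal in every library, with sums of 1025 to 2454, 1950 to 3816 and 3500 to 4921 CPM over their 30, 20 and 20 markers. Sums over the T and NK cell, erythroid and platelet, and border macrophage lists were at most 60.3, 46.4 and 130 CPM. Those over the neutrophil, B and plasma cell, and dendritic cell lists ran from 164 to 330, 412 to 754 and 926 to 1291 CPM. Lyve1 of border macrophages and Ly6g of neutrophils were listed at 0 in all 6 libraries, but so were 6 of the 13 protein genes of the mitochondrial genome, which every cell uses, so that a listed 0 does not show absence.

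The libraries did not lie at even distances from each other. The first principal component of the log2 CPM held 67.8% of the variance between libraries and placed cKO 2 at -44.0, cKO 1 at -23.1, cKO 4 at -22.7, cKO 3 at 6.35, cKO 6 at 26.9 and cKO 5 at 56.6. The second component held 15.7% and placed cKO 3 apart at 28.4. The root mean square difference in log2 CPM over genes ran from 0.353 between cKO 2 and cKO 4 to 0.988 between cKO 2 and cKO 5. Genes whose mean reached 5 CPM numbered 10644, of which 33.97% had their highest value in cKO 5 and 32.9% their lowest, and cKO 2 held the highest value of 26.7% and the lowest of 27.6%. No pair of libraries held the same counts within sampling noise (lowest chi-square per degree of freedom 45.6).

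Most genes differed modestly between libraries, and a small share differed widely. The standard deviation (SD) of a gene's log2 CPM over the 6 libraries had a median of 0.294, against a median of 0.0569 from counting error alone. The middle 90% of genes ran from 0.104 to 0.841. An SD of at least 1 was found for 288 of the 10644 genes, or 2.71%, and an SD of at most 0.15 for 1502, or 14.1%. A difference of at least 2-fold between the highest and the lowest library was found for 3881 genes (36.5%), and only 405 genes (3.80%) had an SD within 1.5 times that of counting error. Cd52, Cd63 and St3gal5 lay just inside the upper limit with an SD of 1.001, 1.002 and 1.004, and Fgfr3, Slc4a4 and Hpse just outside it.

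**Figure D1:**
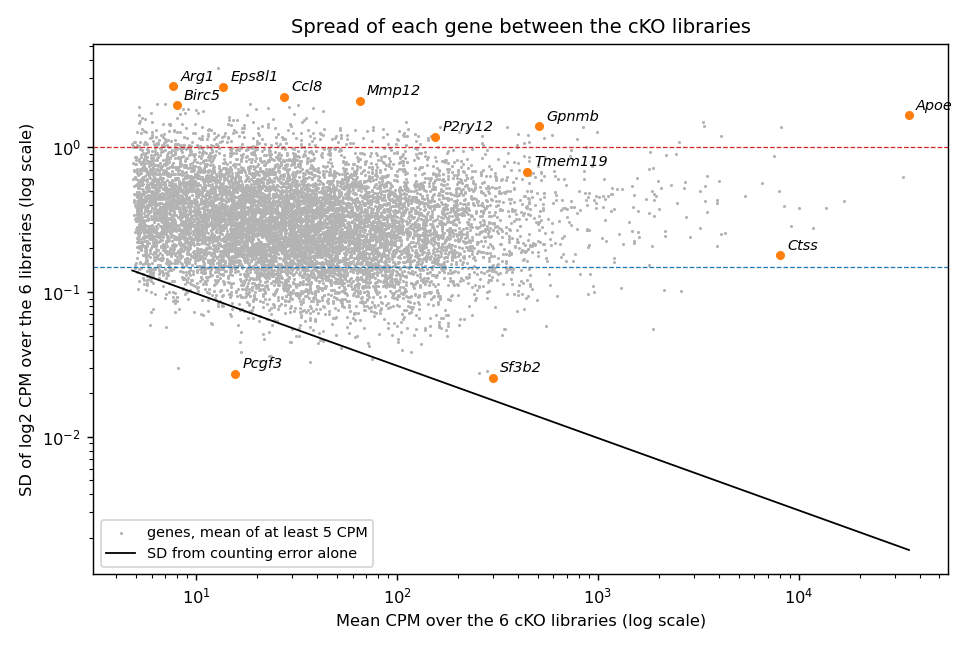
SD of log2 CPM over the 6 cKO libraries (vertical, log scale) against the mean CPM (horizontal, log scale), 1 grey point for each of the 10644 genes; orange points are named genes, the dashed lines are at SD 1 and 0.15, and the black line is the SD that counting error alone gives. Of the named genes Arg1 and Eps8l1 stand highest, Apoe is the gene of highest mean and lies above the upper line, and most genes lie far above the counting line.

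The genes of largest SD included genes of macrophage activation, of lipid transport and of mitosis. Arg1, the arginine-degrading enzyme of alternatively activated macrophages, had an SD of 2.65 and stood at 0.1999, 1.66, 0.2498, 3.05, 32.4 and 8.55 CPM in cKO 1 to 6. It was high in cKO 5 and cKO 6 and close to the floor of 3 counts in cKO 1 and cKO 3. The chemokines Ccl8 and Ccl2, which draw monocytes, had an SD of 2.24 and 1.89. Ccl8 stood at 4.099, 1.58, 14.9, 4.02, 102 and 38.1 CPM. Ccl2 stood at 2.499, 7.65, 7.54, 20.7, 80.95 and 54.9 CPM. Both were highest in cKO 5, followed by cKO 6. Of the 13 monocyte markers, Fn1 (fibronectin) was the only one to reach a mean of 5 CPM, at 473, 255, 1240.3, 161, 1685 and 1243 CPM, and it made up most of a list sum of 176 to 1720 CPM. Ly6c2 and Ccr2, which define inflammatory monocytes, stood at 0, 0.0394, 0.0999, 0.528, 1.74 and 0.472 CPM and at 0.04998, 0.316, 0.3997, 0.0406, 0.508 and 0.367 CPM. Both were highest in cKO 5, and their part in the chemokine values was not tested.

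A different order was seen for genes of matrix turnover and lipid handling. Mmp12, the macrophage elastase, stood at 80.5, 9.47, 256, 4.796, 15.6 and 25.3 CPM (SD 2.096), highest in cKO 3. Postn, a matrix protein, stood at 52.9, 9.23, 96.97, 2.19, 22.6 and 9.08 CPM (SD 1.95). Xirp1, an actin-binding protein of muscle, stood at 4.898, 1.302, 21.2, 1.26, 0.381 and 2.15 CPM (SD 1.89). All 3 were highest in cKO 3 and second highest in cKO 1. Fibroblasts also make Postn, and the sum over 14 fibroblast and meningeal markers ran from 291 CPM in cKO 4 to 830.05 CPM in cKO 6, with 786 in cKO 3; its part in the Postn values was not tested.

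The apolipoproteins Apoc1 and Apoc4 and the lysozyme Lyz1 shared another order. Apoc1 stood at 51.8, 4.85, 71.99, 4.23, 64.8 and 30.01 CPM in cKO 1 to 6 (SD 1.86). Apoc4 stood at 9.85, 0.828, 12.2, 0.406, 10.2 and 4.77 CPM (SD 1.99). Lyz1, whose reads may be shared with its close copy Lyz2, stood at 15.9, 2.48, 55.5, 1.38, 23.5 and 12.2 CPM (SD 1.98). Each was lowest in cKO 4, second lowest in cKO 2 and highest in cKO 3.

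The mitotic genes Ube2c, Birc5 and Cdca3 were also among the 15 of largest SD, at 2.01, 1.96 and 1.85. Mycl, a transcription factor of the Myc family, was the reverse case: it stood at 37.2, 45.002, 9.99, 32.8, 1.398 and 10.3 CPM, lowest in cKO 5 (SD 1.86). Eps8l1, a relative of the actin regulator Eps8, was low in a single library. It had 303, 687, 215, 512, 187 and 2 counts in cKO 1 to 6, so that 5 libraries lay together and cKO 6 lay far below them. Of the 288 genes with an SD of at least 1, 102 were highest and 98 lowest in cKO 5, and 97 were highest in cKO 2. The cKO 5 shares, 35.42% and 34.03%, were close to the 33.97% and 32.9% of all genes. The cKO 2 share was 33.68%, against 26.7% of all genes.

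**Figure D2:**
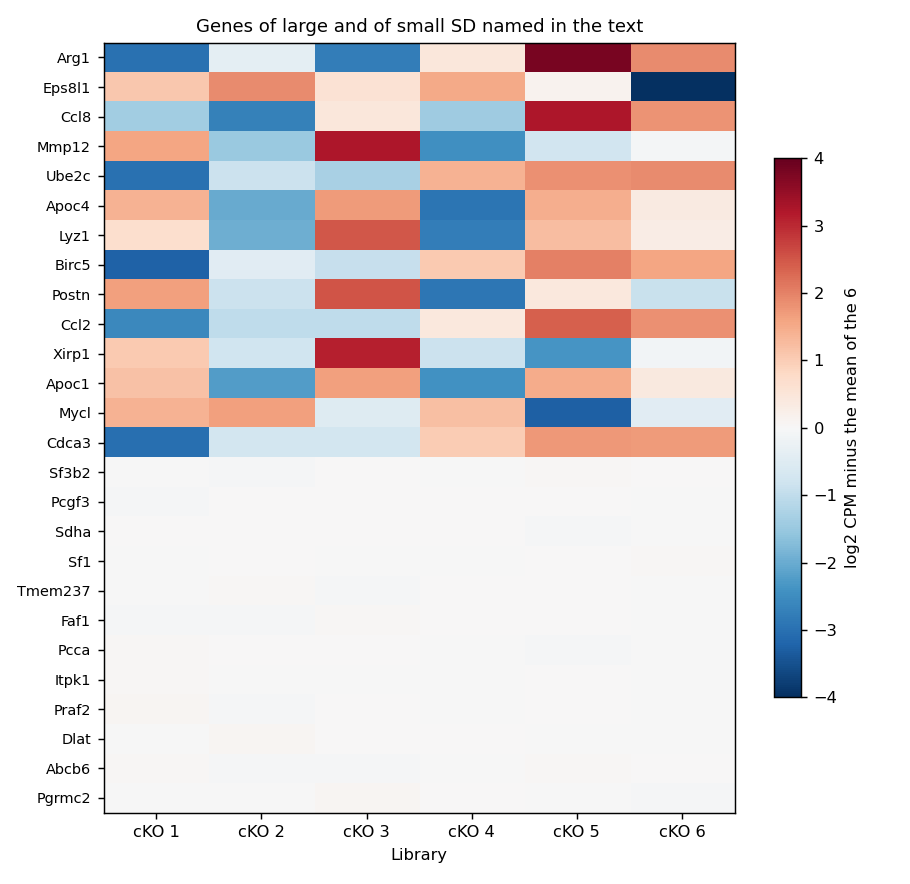
Deviation of log2 CPM from the mean of the 6 cKO libraries (colour; red is higher, blue lower, with the scale ending at ±4) for the named genes of largest SD (upper rows, from Arg1) and of smallest SD (lower rows, from Sf3b2), 1 column per library. The upper rows fall into several different orders of the libraries, and the lower rows are close to white throughout.

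The 5 marker genes followed different orders of the libraries. Apoe (chr7:19696109-19699188), which carries cholesterol and other lipids out of cells, stood at 45557, 7619, 70299, 4123, 55173 and 28826 CPM in cKO 1 to 6, a 17.1-fold range (SD 1.67). It made up 6.59% of all counts in cKO 3 and 0.435% in cKO 4. Gpnmb (chr6:49036546-49070929), a membrane protein of lipid-laden phagocytes, stood at 425, 108, 1505, 128, 370.3 and 519 CPM (SD 1.401). Both were lowest in cKO 2 and cKO 4 and highest in cKO 3.

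P2ry12 (chr3:59216272-59262871), the receptor with which resting microglia sense ADP, stood at 209.7, 248, 118, 250.3, 32.3 and 70.3 CPM, a 7.75-fold range (SD 1.19). It was lowest in cKO 5 and cKO 6 and highest in cKO 4 and cKO 2, which were nearly the same. Its exons overlap those of Med12l on the other strand. Mki67 (chr7:135689784-135716361), a protein of dividing cells, had only 1, 11, 9, 41, 84 and 34 counts, below the mean of 5 CPM. It was lowest in cKO 1 and highest in cKO 5. Prx (chr7:27499324-27520214), the periaxin of myelinating Schwann cells, also had a mean below 5 CPM, with 5.35, 13.4, 0.2997, 0.528, 0.635 and 0.735 CPM. Its values fell into 2 separate sets, cKO 1 and cKO 2 against the other 4 libraries.

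**Figure D3:**
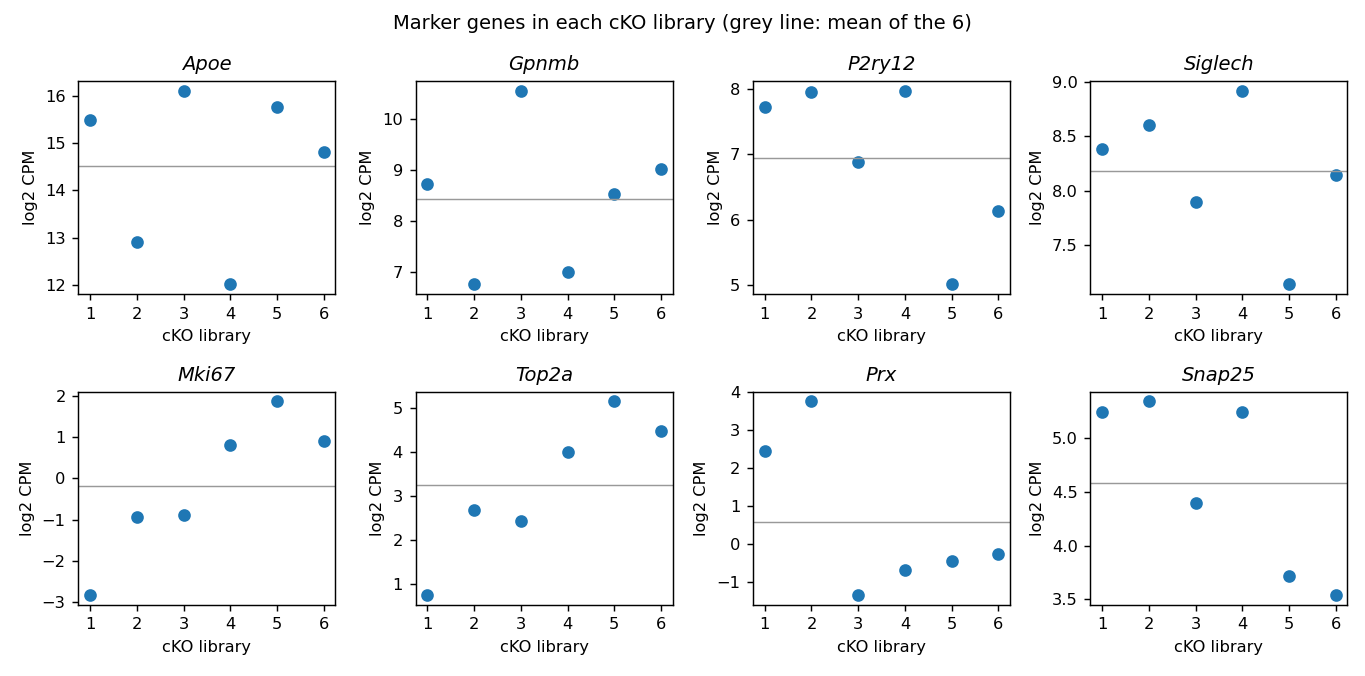
Log2 CPM (vertical, each panel with its own scale) of 8 genes in the 6 cKO libraries (horizontal), 1 point per library, with the mean of the 6 as a grey line; no error bar is drawn because each point is 1 library. Apoe and Gpnmb are low in cKO 2 and cKO 4, P2ry12 and Siglech are lowest in cKO 5, Mki67 and Top2a are lowest in cKO 1 and highest in cKO 5, Prx is high in cKO 1 and cKO 2 alone, and Snap25 is lowest in cKO 6 and cKO 5.

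Across the 6 libraries no pair of marker genes passed the test of correlation after adjustment over the 10 pairs. Apoe and Gpnmb had the largest Pearson r, 0.88, with an exact two-sided permutation p of 0.025 and an adjusted p of 0.25. Their Spearman rho was 0.71 (exact permutation p = 0.136, adjusted 0.681). Without cKO 2 and cKO 4, the libraries farthest from the median of Apoe, r was 0.52 over a narrower range of Apoe. With 1 library left out at a time r ran from 0.84, without cKO 2, to 0.93, without cKO 5. P2ry12 had an r of -0.65 with Mki67 (adjusted p 0.517, exact permutation), which became 0.18 without cKO 5 and cKO 6, and of -0.62 with Apoe (adjusted p 0.517, exact permutation), which became 0.05 without cKO 2 and cKO 4. The other pairs without Prx had an r of -0.14 to -0.45, and no pooled r is given for Prx because its values form separate sets. With 720 pairings the smallest p that 6 libraries can give is 0.00278.

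Most homeostatic genes were lowest in the same library. Their mean log2 CPM over 33 measured members was 9.14, 9.36, 8.71, 9.46, 8.06 and 8.79 in cKO 1 to 6, lowest in cKO 5. A total of 27 of the 33 had their lowest value in cKO 5, against 32.9% of all genes, and 16 had their highest in cKO 4, against 11.1%. The median SD of the members was 0.610, against 0.294 for all genes, and only P2ry12 reached 1.

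Tmem119, a surface protein of microglia, stood at 504, 685, 287, 637, 214 and 324 CPM. Cx3cr1, the receptor for the neuronal chemokine fractalkine, stood at 1573, 2334, 1456, 2181, 742 and 1122 CPM. Siglech, a sialic acid-binding lectin, stood at 335, 388, 238, 484, 141 and 283 CPM. All 3 were lowest in cKO 5, with cKO 3 and cKO 6 next.

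Disease-associated genes were more widely spread and followed other libraries. Their mean over 36 measured members was 9.11, 8.05, 9.99, 8.27, 9.55 and 9.73 log2 CPM in cKO 1 to 6. A total of 27 of the 36 were lowest in cKO 2, against 27.6% of all genes, and 19 were highest in cKO 3, against 9.35%. An SD of at least 1 was reached by 16 of 36, against 2.71% of all genes.

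Spp1, the secreted protein osteopontin, stood at 2025, 762, 4992, 592, 7109.5 and 4598 CPM (SD 1.503). Lpl, which releases fatty acids from lipoproteins, stood at 235, 51.6, 435, 52.8, 194 and 257 CPM (SD 1.28). Atp6v0d2, a subunit of the proton pump of lysosomes, stood at 23.5, 4.65, 65.6, 3.86, 30.9 and 16.3 CPM (SD 1.58). These 3 genes were low in both cKO 2 and cKO 4, but only Spp1 was highest in cKO 5. Ch25h, which makes 25-hydroxycholesterol, stood at 40.6, 19.7, 115, 35.2, 302 and 155 CPM (SD 1.49), with cKO 5 and cKO 6 above the rest. Of the 36 members 19 were highest in cKO 3, 10 in cKO 6 and 7 in cKO 5. These were 52.8%, 27.8% and 19.4%, against 9.35%, 12.8% and 33.97% of all genes. The share in cKO 5 was thus below that of all genes.

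Cytokine and chemokine genes had a mean of 4.75, 4.79, 5.42, 5.25, 6.42 and 6.41 log2 CPM over 22 measured members, and 10 of the 22 had an SD of at least 1. Their highest value was in cKO 5 for 13 and in cKO 6 for 6, against 33.97% and 12.8% of all genes. Il1b, a fever-inducing cytokine, stood at 10.4, 9.78, 19.8, 13.4, 75.1 and 53.5 CPM in cKO 1 to 6 (SD 1.25). Saa3, an acute-phase protein, stood at 5.998, 16.4, 10.8, 9.39, 149.8 and 63.6 CPM (SD 1.796). Ccl7, another chemokine for monocytes, stood at 0.8497, 4.81, 1.299, 5.08, 25.1 and 14.2 CPM (SD 1.84). All 3 were highest in cKO 5 and second highest in cKO 6. Ccl3 and Ccl4, chemokines of activated macrophages, were not highest in cKO 5: Ccl3 stood at 107, 22.1, 212, 56.9, 92.1 and 179 CPM. Ccl4 stood at 57.6, 11.4, 106, 31.7, 104 and 112 CPM. They were lowest in cKO 2 and cKO 4, as Apoe was.

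Cell cycle genes had a mean of 2.24, 3.11, 3.01, 3.91, 4.702 and 4.504 log2 CPM over 34 measured members in cKO 1 to 6, a range of 2.46 against 1.94 for the disease-associated and 1.67 for the cytokine list. With the median in place of the mean the ranges were 2.26, 2.53 and 2.47. A total of 28 of the 34 were lowest in cKO 1, against 8.32% of all genes, and all 34 were highest in cKO 5 or cKO 6, with 24 and 10. An SD of at least 1 was reached by 14 of 34. Top2a, the topoisomerase that untangles chromosomes, stood at 1.599, 6.35, 5.35, 16.1, 35.6 and 22.3 CPM. Ube2c, which with the anaphase-promoting complex marks cyclins for destruction, stood at 0.3999, 2.05, 1.499, 10.1, 13.8 and 14.2 CPM. Birc5, the survivin that helps separate chromosomes, stood at 0.3999, 3.27, 2.35, 9.55, 18.7 and 13.8 CPM. In each of these the 3 libraries cKO 4, cKO 5 and cKO 6 lay above the other 3 without overlap.

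Several genes of DNA replication were spread less than these 3. Pcna, the clamp of the replication polymerase, stood at 23.1, 22.7, 33.6, 26.9, 45.7 and 39.1 CPM (SD 0.41). Mcm3, a subunit of the replicative helicase, stood at 57.6, 74.4, 64.9, 73.04, 116 and 97.6 CPM (SD 0.38). Mcm6, a partner subunit, stood at 20.99, 27.96, 30.4, 31.2, 71.3 and 52.4 CPM (SD 0.65). Each was highest in cKO 5 and second highest in cKO 6, and so was Top2a, whereas Ube2c was highest in cKO 6. Spread did not follow this division throughout: Rrm2, a subunit of the enzyme that makes deoxynucleotides, had an SD of 1.71, and Bub1b, a kinase of the mitotic checkpoint, one of 0.82.

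Late cell cycle genes are known to share a pair of promoter elements. The cell cycle homology region, searched as TTTGAA or TTCGAA on either strand, is known to hold the complexes that keep late cell cycle genes silent in resting cells, and the CCAAT box, searched as CCAAT on either strand, binds NF-Y. In the RefSeq window from 250 bases before to 50 after the gene's start (GRCm38.p6), 28 of the 34 measured cell cycle genes were matched. TTTGAA or TTCGAA was found in 14 of the 28 (50%), against 15.5% of the 8000 matched genes whose mean reached 5 CPM and 21.7% of all 27025 promoters. CCAAT was found in 20 of 28 (71.4%), against 42.3% and 41.1%. CACGTG, the core of the element that the lysosomal regulator TFEB binds, was found in 3 of 28 (10.7%), against 12.3% of the 8000, and in 9 of 28 matched lysosome genes (32.1%). These matches are a description of letters and show no binding. Stretches of the 120 bases before the start are printed for 4 mitotic genes, in the direction of transcription, with both motifs in capitals. They were chosen as the 4 matched genes of largest SD that hold TTTGAA or TTCGAA in that stretch, so they do not stand for the list. In the longer window, Cdca3 (SD 1.85) held both motifs, Rrm2 (SD 1.71) held CCAAT alone and Birc5 (SD 1.96) held neither. Cdc20 activates the anaphase-promoting complex and Prc1 bundles microtubules between the separating chromosomes. The stretches lie at chr2:164769809-164769928 (plus strand, Ube2c), chr11:99024190-99024309 (minus strand, Top2a), chr4:118437344-118437463 (minus strand, Cdc20) and chr7:80294356-80294475 (plus strand, Prc1).
Ube2c: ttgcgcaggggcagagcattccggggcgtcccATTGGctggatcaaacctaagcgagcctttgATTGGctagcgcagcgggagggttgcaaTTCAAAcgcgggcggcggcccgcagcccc
Top2a: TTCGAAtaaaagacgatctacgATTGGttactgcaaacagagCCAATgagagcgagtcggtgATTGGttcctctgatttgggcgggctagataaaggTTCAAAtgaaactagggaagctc
Cdc20: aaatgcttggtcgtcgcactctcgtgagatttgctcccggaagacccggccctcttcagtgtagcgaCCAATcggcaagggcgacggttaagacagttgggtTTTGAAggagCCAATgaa
Prc1: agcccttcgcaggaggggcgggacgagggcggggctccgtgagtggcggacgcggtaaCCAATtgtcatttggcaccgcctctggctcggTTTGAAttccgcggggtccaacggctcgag

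Neuronal, astrocyte and peripheral nerve markers had their highest mean in cKO 2, followed by cKO 1. Neuronal markers had a mean of 5.38, 5.57, 4.64, 5.13, 4.304 and 4.19 log2 CPM over 25 measured members, and 18 of the 25 were highest in cKO 2, against 26.7% of all genes. Astrocyte markers had 5.82, 5.84, 5.32, 5.71, 4.84 and 4.88 over 19 members. Peripheral nerve markers had 5.39, 5.62, 4.76, 4.84, 4.26 and 4.38 over 9 members. Snap25, a protein of synaptic vesicle release, stood at 37.8, 40.5, 21.03, 37.8, 13.05 and 11.5 CPM. Nefl, the light chain of neurofilaments, stood at 177, 228, 98.6, 148, 64.3 and 73.9 CPM. Mbp, a protein of both central and peripheral myelin, was steadier at 1672, 1515, 1964, 1771, 1357 and 1264 CPM (SD 0.24). Central myelin markers had a mean of 5.53, 5.77, 5.28, 5.67, 4.996 and 4.83, highest in cKO 2 and then cKO 4. The means of the oligodendrocyte precursor, endothelial, and fibroblast and meningeal lists were highest in cKO 3, over 6, 4 and 12 measured members. Only 1 member of each list was itself highest there. Of the precursor members 3 were highest in cKO 2, and of the fibroblast and meningeal members 5 were highest in cKO 6. The ependymal mean over 4 members was highest in cKO 5, where 1 of the 4 was highest. In libraries made from tissue, fewer cells of a type and less RNA per cell cannot be told apart.

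**Figure D4:**
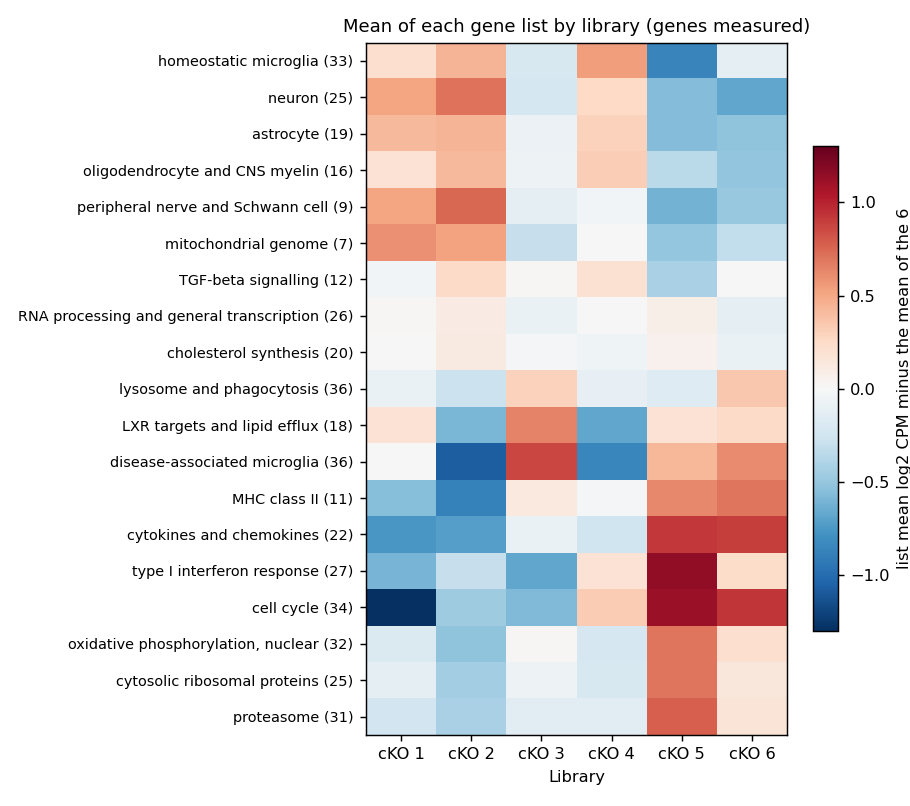
Mean log2 CPM of each gene list in each cKO library minus the mean over the 6 libraries (colour; red is higher, blue lower), 1 row per list with the number of measured genes in brackets and 1 column per library. Homeostatic, neuronal, astrocyte and central myelin lists are highest in cKO 2 or cKO 4 and lowest in cKO 5 or cKO 6, cell cycle, interferon and cytokine lists are highest in cKO 5, and the disease-associated list is highest in cKO 3.

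Which genes move with a marker from library to library was tested with the edgeR quasi-likelihood fit, in which the slope is the change in a gene's log2 CPM per unit of log2 CPM of the marker. A gene passed with a Benjamini-Hochberg adjusted p under 0.05 over all genes tested. P2ry12 had by far the most: 2253 of 10643 genes (21.2%) rose with it and 2350 (22.1%) fell as it rose, 4603 in all (43.2%). Scaled by library totals that leave Apoe out, the split was 3167 rising and 1520 falling. Without cKO 5 the count was 1618 (1072 rising, 546 falling), and without cKO 1 and cKO 2 it was 1303.

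Among the homeostatic genes 22 of the 32 other members rose with P2ry12, against 21.2% of all genes, and none fell. Cx3cr1 had a slope of 0.51 ± 0.08 (SE; adjusted p = 0.0029, edgeR quasi-likelihood), Tmem119 0.53 ± 0.09 and Hpgd, which degrades prostaglandins, 0.71 ± 0.06. The other 10 did not pass. Without cKO 5, 13 of 32 passed, and without cKO 1 and cKO 2, 14. Outside the lists, the genes of smallest p that rose with P2ry12 included Il6ra, a receptor chain for interleukin-6, with a slope of 0.797 ± 0.05 and an adjusted p of 0.00078 (edgeR), Vipr1, a receptor for vasoactive intestinal peptide, with 1.22 ± 0.09, and Il16, a cytokine precursor, with 0.82 ± 0.06.

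The genes of smallest p that fell as P2ry12 rose included Msr1, Timp1 and Hmox1. Msr1, a scavenger receptor for modified lipoproteins, stood at 8.397, 6.86, 16.7, 4.92, 73.96 and 26.3 CPM in cKO 1 to 6 and had a slope of -1.21 ± 0.07 (adjusted p = 0.00078, edgeR). Timp1, an inhibitor of matrix proteases, stood at 1.35, 2.41, 4.15, 1.83, 40.5 and 9.55 CPM, with a slope of -1.495 ± 0.12. Hmox1, which degrades haem, stood at 258, 218, 449, 244, 978 and 578 CPM, with a slope of -0.71 ± 0.06. All 3 were highest in cKO 5 and second highest in cKO 6. Each of these 6 genes also passed with each library left out in turn. With the mean of the neuronal markers as a second term in the fit, Il6ra, Vipr1, Il16, Msr1 and Timp1 passed and Hmox1 did not (adjusted p = 0.0624, edgeR).

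Of the disease-associated genes 11 of 36 fell as P2ry12 rose, against 22.1% of all genes, and none rose with it. They included Spp1 (slope -1.06 ± 0.28, adjusted p = 0.0236, edgeR) and Ch25h (-1.19 ± 0.15). Apoe (-0.62 ± 0.5003), Gpnmb (-0.501 ± 0.65) and Lpl (-0.48 ± 0.46) did not pass. Of the cytokine genes 8 of 22 fell and none rose, among them Il1b (-1.02 ± 0.11) and Saa3 (-1.32 ± 0.23). The disease-associated count was 7, 5, 6 and 7 without cKO 1, cKO 2, cKO 4 and cKO 6. Without cKO 3 it was 14, as with DESeq2, and without cKO 5 it was 9. Without cKO 1 and cKO 2 it was 1, with 647 of all genes falling in place of 2350. It was 6 with a correction for gene length and 5 of 38 with no filter on low counts. The cytokine count was 5 with the length correction, 5 without cKO 2 alone and 3 when cKO 1 was left out too. Without cKO 3 it was 11, and without cKO 4 or with DESeq2 it was 10. Of the cell cycle genes 13 of 34 fell and none rose. All 13 were genes of DNA replication or of entry into it, such as Mcm6 (-0.49 ± 0.08), Pcna (-0.33 ± 0.06) and the cyclin Ccne1 (-0.77 ± 0.15). The mitotic genes Top2a and Birc5 had slopes of similar size with a wider error: Top2a had -0.71 ± 0.34 (adjusted p = 0.139, edgeR) and Birc5 -0.705 ± 0.41. The cell cycle count was 3 without cKO 5, 26 without cKO 4 and 4 without cKO 1 and cKO 2.

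Most genes of 3 lists of general cell machinery fell as P2ry12 rose. Of the proteasome genes 29 of 31 fell as it rose, of the nuclear genes of oxidative phosphorylation 28 of 32, and of the ribosomal protein genes 22 of 25. Over all genes 22.1% fell and 21.2% rose. Of the RNA processing genes 6 of 26 fell and 7 rose, or 11 and 4 with a correction for gene length. The median SD was 0.418, 0.478 and 0.437 in the first 3 lists, against 0.294 for all genes. Psmb1, a core subunit of the proteasome, stood at 119, 92.8, 134, 121, 273 and 169 CPM (SD 0.54), and all 31 proteasome genes were highest in cKO 5. Without cKO 5 the counts that fell were 5, 6 and 0, while the number of all genes that fell dropped from 2350 to 546. Without cKO 1 and cKO 2 they were 9, 15 and 8, with 647 of all genes falling. Of the interferon-response genes 10 of 27 fell as P2ry12 rose. Isg15, a ubiquitin-like protein induced by interferon, stood at 17.3, 18.6, 16.5, 39.02, 176 and 46.2 CPM, and without cKO 5 none of the list fell and 1 rose. The count that fell was 18 without cKO 4, 5 without cKO 1, 5 without cKO 2 and 2 without both, and 6 scaled by totals that leave Apoe out.

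Markers of some other cells moved with P2ry12. Of the neuronal markers 19 of 25 rose with it, of the astrocyte markers 13 of 19 (1 fell), of the central myelin markers 9 of 16 and of the peripheral nerve markers 3 of 9, among them Pmp22 and Drp2, against 21.2% of all genes. No marker rose in the endothelial and mural list, in which 2 of 4 fell, or in the fibroblast and meningeal list, in which 1 of 12 fell. The first of these depended on the filter. At a mean of at least 1 CPM 2 of 15 endothelial and mural markers rose and 2 fell, and with no filter 4 of 22 rose and 2 fell. Without cKO 2 the neuronal, astrocyte, central myelin and peripheral nerve counts that rose were 11, 12, 4 and 1. Without cKO 1 and cKO 2 they were 7, 6, 2 and 1. The peripheral nerve count was also 1 without cKO 3, cKO 5 or cKO 6 and with limma-voom, and the central myelin count was 6 without cKO 4. With the neuronal mean as a second term in the fit, the slope of Drp2 turned from 0.72 to -0.20 and it did not pass. In that fit 43 genes passed, and 3 of the 32 homeostatic genes, Gpr34, Serpine2 and Hpgd, while none of the disease-associated, cytokine, cell cycle, proteasome or interferon genes did. The fit then has fewer degrees of freedom, and 19 of the 25 neuronal markers themselves rose with P2ry12. Because the neuronal mean and P2ry12 vary together, the loss of genes in this fit does not show which of them the genes follow. The slopes on P2ry12 also followed gene length, with a Spearman correlation across 10540 genes of 0.46 (genes are not independent replicates). This was not particular to P2ry12: the value was -0.43 for Apoe, -0.41 for Gpnmb, -0.45 for Mki67 and 0.48 for Prx. The libraries themselves differed in this way. A gene's deviation from its mean had a Spearman correlation with length of 0.307, 0.511, -0.055, 0.299, -0.413 and -0.414 in cKO 1 to 6. With a correction for length 3805 genes passed the fit on P2ry12, 2982 of them among the 4603. The nuclear RNA Xist stood at 52.6, 75.2, 13.99, 20.2, 9.404 and 6.24 CPM and Neat1 at 101.3, 123, 46.96, 54.4, 49.99 and 34.7 CPM, both highest in cKO 2 and cKO 1. These fits do not separate the parts that other cells, gene length or nuclear RNA have in the slopes, and those parts were not tested.

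**Figure D5:**
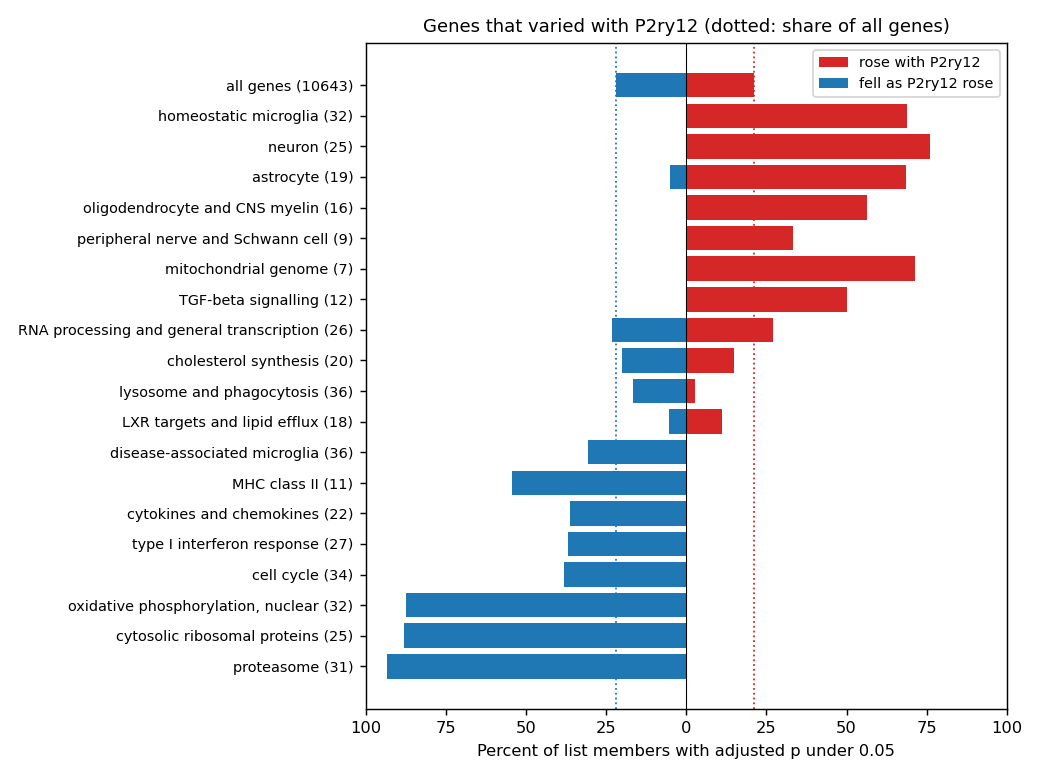
Percent of the measured members of each list that passed the edgeR fit on P2ry12 at an adjusted p under 0.05, to the right for genes that rose with P2ry12 (red) and to the left for genes that fell as it rose (blue); the number of genes is in brackets and dotted lines mark the share of all genes, 21.2% and 22.1%. Homeostatic, neuronal and glial lists extend to the right, and proteasome, ribosomal and oxidative phosphorylation lists to the left.

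The other markers had few genes or none. With Apoe 4 of 10643 genes rose (0.0376%) and none fell. Apoc1 (slope 1.099 ± 0.08, adjusted p = 0.0176, edgeR) and Apoc4 (slope 1.25 ± 0.09) lie beside Apoe on the same strand of chromosome 7, at chr7:19689481-19692660 and chr7:19678083-19681479. The others were Lyz1 (slope 1.22 ± 0.11) and Slamf7, a receptor of activated leukocytes (slope 0.59 ± 0.06). Slamf7 stood at 47.6, 16.8, 79.03, 14.2, 56.3 and 42.8 CPM in cKO 1 to 6. All 4 had their lowest values in cKO 2 and cKO 4, and none of the 4 passed without cKO 2, cKO 3, cKO 4 or cKO 6. Lpl (slope 0.72 ± 0.12) and Lgals3, the lectin galectin-3 (slope 0.71 ± 0.11), did not pass.

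With Mki67 1 of 10644 genes rose (0.00939%), Top2a, with a slope of 0.96 ± 0.07 (adjusted p = 0.0147, edgeR), and of the sets of libraries fitted it passed in all 6 and without cKO 4. Ccl2, which did not pass, had a slope of 1.12 ± 0.12. With Gpnmb and with Prx no gene passed (0% of 10643 and of 10644 genes). At an unadjusted p under 0.05 there were 840 genes for Gpnmb and 845 for Prx in edgeR, and DESeq2 called 300 and 52.

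The steadiest genes included genes of splicing, transcription and mitochondrial metabolism. The smallest SD was that of Sf3b2, a subunit of the splicing factor that recognises the branch point, which stood at 296, 291, 303, 299, 307 and 299.9 CPM in cKO 1 to 6 (SD 0.026). Pcgf3, a Polycomb ring finger protein, stood at 15.2, 15.97, 15.8, 15.7, 15.8 and 15.4 CPM (SD 0.027). Sdha, the catalytic subunit of succinate dehydrogenase, stood at 261, 261, 257, 257, 248 and 254 CPM (SD 0.028). The values of each gene were nearly equal in all 6 libraries, and the SD of Pcgf3 was below the 0.078 that counting error alone gives. Sf1, another branch point factor, Faf1, Pcca, Itpk1, Praf2, Tmem237, Dlat, Abcb6 and Pgrmc2 completed the 12 of smallest SD. The list of RNA processing and general transcription had a mean of 6.07, 6.15, 5.97, 6.05, 6.13 and 5.93 log2 CPM, and that of cholesterol synthesis 4.62, 4.73, 4.603, 4.57, 4.68 and 4.53, the flattest of those drawn. A flat list mean does not make each member steady. The median SD of the members was 0.251 and 0.272, against 0.294 for all genes. An SD of at most 0.15 was found for 5 of 26 and 1 of 20 members (19.2% and 5%), against 14.1% of all genes. Within the first list Prpf8, a core protein of the spliceosome, still had an SD of 0.62. Nuclear genes of oxidative phosphorylation were not steady as a list: 3 of 32 had an SD of at most 0.15 (9.4%), and their median SD was 0.478.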

How the data were processed

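The authors deposited 1 table of whole-number read counts for 39017 Ensembl gene IDs, of which the 6 cKO columns were used. Per the submitters' processing notes, bcl2fastq 2.17, FastQC and Trimmomatic were used with the build mm10; how reads were aligned and counted, and with which strand setting, is not given in the sources used here. A KAPA stranded kit with mRNA enrichment was used for all libraries, per the labels' protocols. Symbols (37607 IDs) and coordinates came from the GENCODE annotation of mm10; reads of overlapping genes and close copies may be shared.

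Counts were scaled by TMM (edgeR 4.0.16, limma 3.58.1, R 4.3.3), and log2 CPM was computed with a prior count of 2 for the 10644 genes whose mean over the 6 libraries was at least 5 CPM. Mki67, Prx and Kdm6a fell below that mean and were described and, as markers, used in fits, but not tested. Slopes on a marker were tested with the edgeR quasi-likelihood test (robust) over these genes, with a Benjamini-Hochberg adjusted p under 0.05. The script was tested on simulated data. Because the marker is measured in the same libraries, a slope describes how 2 genes vary together. The labels do not say that libraries are separate animals, so a p-value measures the spread between libraries only, which may be technical. Floors of 3 counts cover counting error only.

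The genes named are Kdm6a, the 5 markers, the 15 of largest and 12 of smallest SD with an established symbol, the 8 of smallest p per marker and direction, and from each of 33 lists (726 symbols, 720 in the table, 515 measured) the first 4 members and the 4 of largest SD; genes at the edges of thresholds and Bub1b, Ccl3, Ccl4, Ccne1, Cdc20, Lgals3, Mcm3, Mcm6, Neat1, Pcna, Ppp1r12c, Prc1, Psmb1, Rdh13, Rrm2, Serpine2 and Xist were named after their values were seen. Some of the genes that this rule takes are not reported here. The members and lists were chosen with earlier results of these data known. Alternatives were other scalings, filters, prior counts, tools (DESeq2 1.42.0, limma-voom), the omission of libraries, a length correction and a neuronal term.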

Additional observations from a re-analysis of the deposited data

Results flagged for a closer look

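Eps8l1 in cKO 6 lay far from the other libraries: its log2 CPM was -2.355, from 2 counts, and in the other 5 libraries it had 187 to 687 counts. The neighbouring genes Rdh13 and Ppp1r12c, which were looked at after this value was seen, stood at 17.8 and 119.7 CPM in cKO 6. In cKO 5, Pmp22 (log2 CPM 6.968, against 7.75 to 8.096 in the others) and Serpine2 (6.038, against 7.68 to 8.44) lay far below the other libraries, and in cKO 2 Dlat (4.627, against 4.53 to 4.565) lay above them. The measure, the gap to the nearest library as a share of the whole range, marks about 1 in 20 genes by chance. It marked 842 of the 10644 genes (7.91%), of which 424 were low and 293 high in cKO 5.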

How the results depend on the processing

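The number of genes with an SD of at least 1 was 549 at a mean of at least 1 CPM, 126 at a mean of at least 20 CPM and 875 with no filter, against 288. The number with an SD of at most 0.15 was 1406 to 2935 with 1 library left out, the highest without cKO 5. For Apoe the number of genes was 2 scaled by totals without Apoe, 12 with no filter, 296 with DESeq2, 7 with the neuronal term, 0 without cKO 1 and cKO 2, and 0 to 10 with 1 library left out (0 without cKO 2, 3, 4 or 6, and 10 without cKO 5). For Gpnmb it was 300 with DESeq2, 5 with the length correction, 24 with the neuronal term, and 0 to 133 with 1 library left out, the highest without cKO 5. For P2ry12 it was 43 with the neuronal term, 1303 without cKO 1 and cKO 2, and 1618 to 4538 with 1 library left out (3063 without cKO 2). For Mki67 it was 12 at a mean of at least 1 CPM, 61 with no filter, 175 with DESeq2, 0 with the neuronal term, 0 without cKO 1 and cKO 2, and 0 to 6 with 1 library left out. For Prx it was 52 with DESeq2. The causes were not tested. Other alternatives left these counts within 1.5 times, and no marker correlation passed under any alternative run. The length correction, the neuronal term and the omission of cKO 1 with cKO 2 were chosen after seeing the data. Scaling by library totals moved the median of all genes by -0.14 to 0.17 on the log2 scale, and by totals without Apoe by up to 0.16. No paired analysis was possible because only 1 group was used.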
